A study of Bos grunniens with 36 samples.

Results

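The interferon response genes described here are 9 genes of the innate antiviral response, measured in the mammary gland of yaks (Bos grunniens) from late pregnancy to late lactation. They are the RNA sensors DDX58 and IFIH1, the transcription factor IRF7, the effectors MX1, MX2, RSAD2, ISG15 and IFIT2, and the chemokine CXCL10. They were chosen by name, and each was represented by its probe with the highest mean over all arrays. All 9 were measured, with 20 of the 34997 probes of the deposited table of normalized values, and they are 9 of the 20643 genes and unnamed probes that were tested.

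Gland tissue of 4 female yaks was biopsied at 9 times relative to calving, which gives 36 arrays of 1 colour, 4 to a day. The groups are day -30 and day -15 before calving, and days +1, +15, +30, +60, +120, +180 and +240 after it. No group carries a treatment or a genetic change, and the same 4 animals appear at every day. Each value is the log2 of the signal minus the array's 75th percentile, so that 0 is the brightness below which 75 percent of the probes of that array lie, and levels are compared between days of one probe but not between probes. Biopsies came in turn from the left and the right rear gland, the array design is that of cattle, and the tissue is a mixture of cells, in which fewer cells of a type and less RNA per cell cannot be told apart.

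Interferons are secreted proteins that cells release when they sense viral nucleic acid. DDX58 (the protein RIG-I) and IFIH1 (MDA5) are helicases that detect viral RNA in the cytoplasm and start the production of type I interferon, and IRF7 is a transcription factor that amplifies it. Interferon receptors then signal through JAK kinases and STAT factors and switch on interferon stimulated genes, among them most of the genes described here. In cattle, the interferon tau of the early conceptus is known to raise ISG15, MX1, MX2 and RSAD2 in the uterus and in blood leukocytes.

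Each level rests on a single 60-base probe, and the probes of the genes on which the results turn are shown here so that it is clear which stretch of each mRNA was read. The sequences are those of the cattle array design with positions on the cattle assembly UMD 3.1 per the file headers, written 5′ to 3′, and capitals mark the bases that 2 probes of one gene share. Both ISG15 probes lie on the minus strand at chr16:52714747-52714806 and chr16:52714715-52714774 and overlap by 28 bases. The CXCL10 probe lies on the minus strand at chr6:92624407-92624895 and shares 21 bases with the second CXCL10 probe. The DDX58 probes lie on the plus strand at chr8:11456932-11459551, the probe used, and at chr8:11472511-11472570, and they gave different results. IFIT2, the member that moved the other way, has 1 probe, on the plus strand at chr26:11071063-11071122.
ISG15 probe A_73_P122741: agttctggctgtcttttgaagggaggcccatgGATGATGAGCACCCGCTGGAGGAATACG
ISG15 probe A_73_119493: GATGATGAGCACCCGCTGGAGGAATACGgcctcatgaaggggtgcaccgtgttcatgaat
CXCL10 probe A_73_P102356: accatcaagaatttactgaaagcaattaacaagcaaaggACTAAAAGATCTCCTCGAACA
DDX58 probe A_73_P085926: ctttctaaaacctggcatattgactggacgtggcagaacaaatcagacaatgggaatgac
DDX58 probe A_73_P085911: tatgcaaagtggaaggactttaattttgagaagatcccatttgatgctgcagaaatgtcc
IFIT2 probe A_73_P060031: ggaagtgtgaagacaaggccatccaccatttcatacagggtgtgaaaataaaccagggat

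Facts of the whole series touch every result below. The files hold 2 records of which array is which sample: each column of the table matches the processed signal of 1 scanner file, but none of the 36 files so matched carries the column's own sample label, and 27 carry another day. The table's record is used here, and in it each of the 9 slides holds the arrays of 1 day, so that slide and day cannot be told apart. Array brightness, as the 75th percentile of the processed signal, ran from 1029.2 to 6450.4, and 68.6 to 89.3% of spots were well above background. The tissue label was checked with 6 milk protein genes, all above background on all arrays, but their mean was 0.04 and -0.08 in animal 4 at days +120 and +180, against 3.54 or more on every other array. It was 3.94 in animal 3 at day +30 and 4.23 in animal 1 at day +240, within the range of day -30 (3.54 to 5.08). Values at days +120 and +180 include the 2 arrays of animal 4 unless stated. The counts of the 9 genes, the listed genes named at day +180 and the probes at day +180 are also given without these 2 arrays. No fit left out only the arrays with 3.94 and 4.23.

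Most of the interferon response genes were high around calving and low at day +60. Day +1 had the highest day mean for 5 of the 9 (DDX58, IFIH1, RSAD2, MX2 and ISG15), day -15 for CXCL10 and day +180 for MX1 and IRF7. Day +60 had the lowest day mean for 6 of the 9, namely DDX58, RSAD2, MX1, MX2, ISG15 and IRF7, while day +180 had it for CXCL10 and IFIH1. IFIT2 ran the other way, with its lowest mean at day -30 and its highest at day +15. By a moderated F test over the 9 days (limma, animal as a random block, adjusted over all genes by Benjamini-Hochberg), 6 of the 9 changed with day, where 42.1% of all genes did. These were CXCL10 (adjusted p = 0.000438), DDX58 (0.00193), RSAD2 (0.00775), IFIH1 (0.00992), IFIT2 (0.0249) and MX2 (0.0372). MX1 (0.057), IRF7 (0.0969) and ISG15 (0.34) did not pass. Leaving out animal 2 left CXCL10 alone and leaving out animal 3 left CXCL10 and DDX58. With array brightness in the model CXCL10 and RSAD2 passed, and with normexp background correction CXCL10 and IFIT2.

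**Figure D1:**
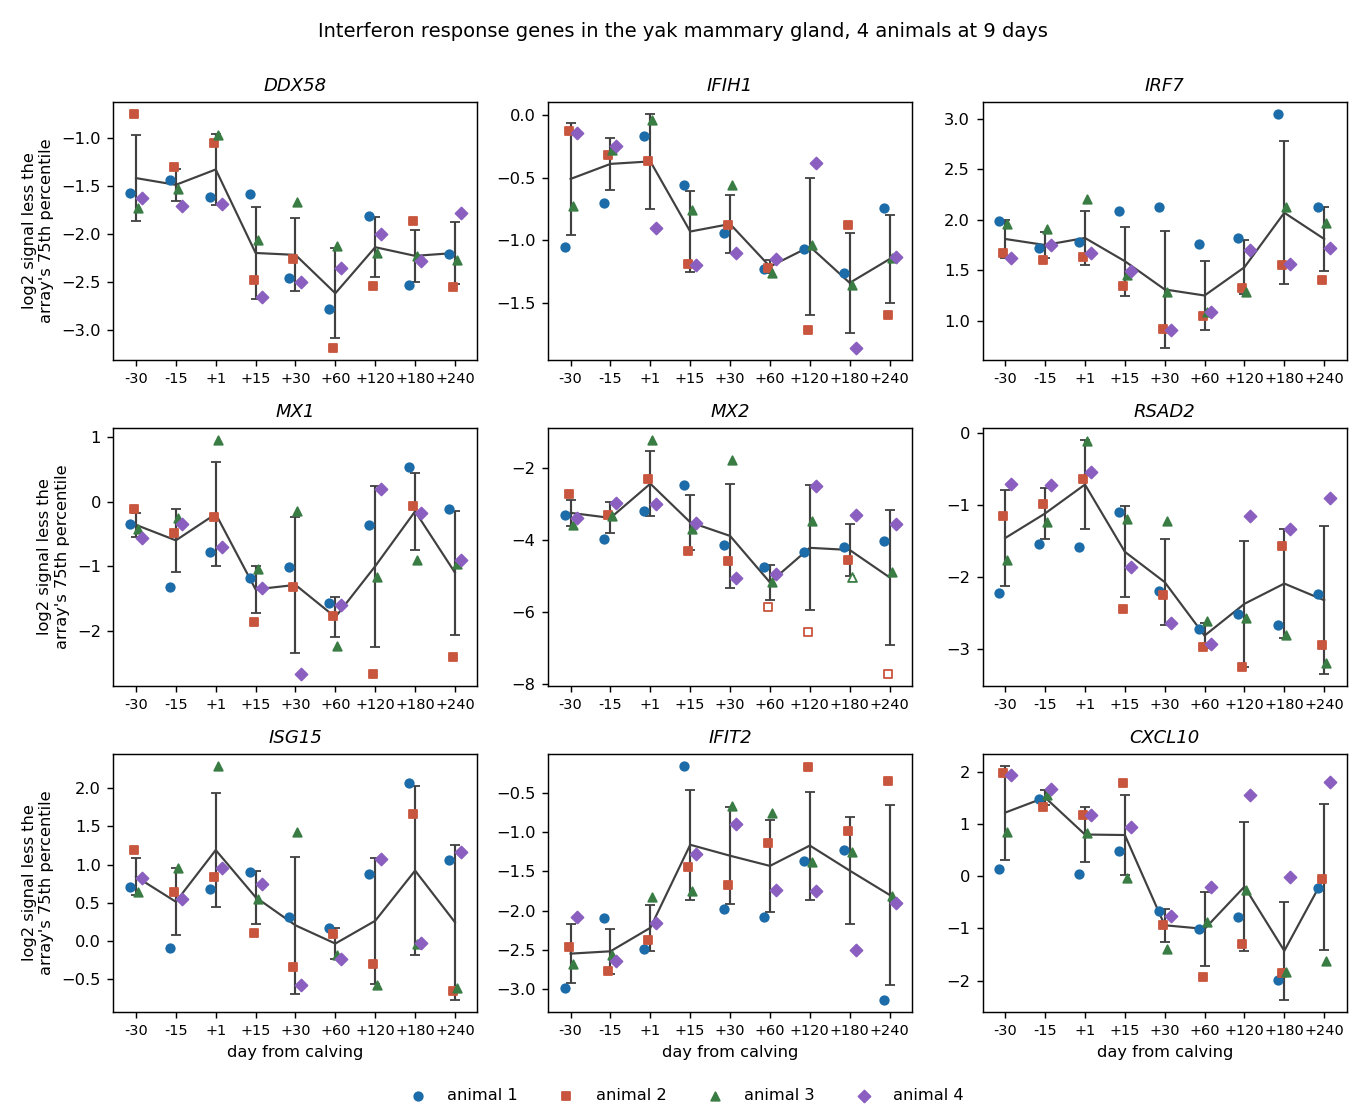
Level of each of the 9 genes (log2 signal minus the array's 75th percentile, one panel per gene, axes differ) by day from calving. Symbols are the 4 animals, lines join the means of the 4 arrays of a day, bars are 1 SD, and open symbols are spots not well above background. IFIT2 is lowest before calving, and 6 of the other genes have their lowest mean at day +60.

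DDX58 was the sensor that passed most often. Before calving its values in animals 1 to 4 were -1.58, -0.75, -1.73 and -1.63 at day -30 and -1.44, -1.30, -1.53 and -1.71 at day -15, and at day +1 they were -1.62, -1.05, -0.97 and -1.69. They were -1.59, -2.48, -2.06 and -2.66 at day +15, -2.46, -2.26, -1.67 and -2.50 at day +30, and -2.78, -3.19, -2.13 and -2.36 at day +60. They were -1.81, -2.54, -2.20 and -2.0 at day +120, -2.53, -1.87, -2.23 and -2.28 at day +180, and -2.21, -2.55, -2.27 and -1.78 at day +240. Of the 24 arrays from day +15 on, 22 lay below the lowest of the 12 arrays up to day +1, which was -1.73. That count is a description, since the arrays are repeats of 4 animals and no share over all genes was taken. DDX58 was lower than at day -30 at day +15 (log2 change -0.78, adjusted p = 0.0392), day +60 (-1.19, adjusted p = 0.0016), day +180 (-0.80, adjusted p = 0.0322) and day +240 (-0.78, adjusted p = 0.045), each with SE 0.26 and 4 of 4 animals lower. The call at day +15 was lost on leaving out any 1 of the 4 animals, with changes from -1.03 (without animal 1) to -0.46 (without animal 2). The call at day +180 was lost likewise, with changes from -0.90 to -0.70. The call at day +240 was lost without animal 1, 2 or 3, and leaving out 1 animal gave changes from -0.99 to -0.44. At day +60 it held in all 4 such fits (-1.46 to -0.78). Its means were -2.62 ± 0.47 at day +60 and -1.42 ± 0.45 at day -30 (SD, n = 4 each).

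The 3 DDX58 probes did not give the same picture. The probe used changed with day (F test adjusted p = 0.00211 among all probes), while the upstream probe (0.0756) and the downstream probe shown above (0.182) did not pass. At day +15, +180 and +240 the call of DDX58 rested on the probe used alone: the upstream probe changed by -0.58 (adjusted p = 0.132), -0.47 (0.224) and -0.59 (0.141) at these days and the downstream probe by 0.10 (0.827), -0.33 (0.412) and -0.29 (0.501). At day +60 against day -30 the 3 probes, in their order along the transcript, gave log2 changes of -0.82 (adjusted p = 0.0261), -1.19 (0.00175) and -0.02 (0.958). The fall of DDX58 at day +60 was thus read by the upstream and the middle probe and not by the downstream one. The upstream probe was dim, with a mean of -4.71 over the arrays, and was well above background on 35 of 36. The middle and the downstream probe had means of -1.98 and -2.28 and were so on all 36.

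IFIH1, the other sensor, was called at fewer days than DDX58. It was -1.23, -1.22, -1.26 and -1.15 in animals 1 to 4 at day +60, against -1.05, -0.13, -0.73 and -0.14 at day -30. All 4 values at day +60 lay below all 4 at day -30 and close together, from -1.26 to -1.15. IFIH1 was lower at day +60 (log2 change -0.70 ± 0.25 SE, adjusted p = 0.0369) and at day +180 (-0.83 ± 0.25 SE, adjusted p = 0.023), and it did not pass at day +15 (adjusted p = 0.246) or day +240 (0.0846). Both calls were lost without animal 2, 3 or 4, with changes from -0.88 to -0.57 at day +60 and from -1.03 to -0.53 at day +180 when each animal was left out in turn. Its day means ran between -0.37 at day +1 and -1.34 at day +180.

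IRF7, the amplifying transcription factor, had the narrowest course. Its day means spanned 0.82 log2 units, the smallest span of the 9, from 1.25 at day +60 to 2.07 at day +180. Its values at day +60 were 1.76, 1.05, 1.09 and 1.09, against 1.99, 1.67, 1.96 and 1.62 at day -30, a log2 change of -0.56 ± 0.25 SE that did not pass (adjusted p = 0.0871). IRF7 differed between animals: animal 1 had the highest value at 7 of the 9 days and animal 2 the lowest at 6 of them.

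MX1 and MX2 encode dynamin-like GTPases that block virus replication. MX1 was -1.57, -1.77, -2.23 and -1.60 at day +60, against -0.35, -0.11, -0.43 and -0.56 at day -30, so that the groups did not overlap (log2 change -1.43 ± 0.50 SE, adjusted p = 0.0325). The call was lost under 8 of 17 alternative settings, among them each fit without 1 animal (changes from -1.56 to -1.31), and the change closest to 0 was -0.05 (adjusted p = 0.966). At day +180 the MX1 values were 0.54, -0.06, -0.91 and -0.17, and the change from day -30 was 0.22 ± 0.50 SE (adjusted p = 0.80). MX2 was the one gene of the 9 not well above background on all arrays (32 of 36). Its values at day +60 were -4.76, -5.86, -5.16 and -4.95, against -3.30, -2.74, -3.58 and -3.40 at day -30. MX2 fell at day +60 (log2 change -1.93 ± 0.72 SE, adjusted p = 0.0432), but animal 2 at day +60 was not well above background, and the change was 0.06 with normexp background correction and 0.01 with array brightness in the model. Without the replicate block MX2 did not pass at day +60 (adjusted p = 0.054). MX2 spread widely in late lactation, with -4.03, -7.72, -4.88 and -3.55 at day +240, where animal 2 was again not well above background.

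RSAD2 encodes viperin, an enzyme that makes a chain-terminating nucleotide against viral polymerases. Its highest values came at day +1, with -1.59, -0.65, -0.12 and -0.54, which did not differ from day -30 beyond the spread (log2 change 0.74 ± 0.45 SE, adjusted p = 0.357). At day +60 RSAD2 was -2.72, -2.97, -2.61 and -2.93, against -2.22, -1.16, -1.76 and -0.71 at day -30. The 4 animals lay between -2.97 and -2.61 at day +60, all below day -30 (log2 change -1.34 ± 0.45 SE, 2.54-fold lower, adjusted p = 0.025). Without animal 2, 3 or 4 RSAD2 did not pass there, with changes from -1.62 to -1.05 when each animal was left out in turn. At days +120 and +240 animal 4 stood above the others, with -1.16 and -0.91 against -2.23 or less.

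ISG15 is a small ubiquitin-like protein that is joined to other proteins and is also secreted. It did not pass at any day: its values at day +60 were 0.17, 0.08, -0.19 and -0.24, against 0.71, 1.19, 0.64 and 0.82 at day -30, which did not overlap (log2 change -0.88 ± 0.49 SE, adjusted p = 0.172). Its spread was widest at day +180, where animals 1 and 2 had 2.07 and 1.67 and animals 3 and 4 had -0.04 and -0.03. The 2 ISG15 probes shown above had a Pearson's r of 0.99 over the 36 arrays, as a description.

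IFIT2, a protein with tetratricopeptide repeats that acts on the translation of viral RNA, was the member that went up. Its values at day -30 were -2.99, -2.46, -2.68 and -2.08, at day -15 -2.10, -2.77, -2.57 and -2.64, and at day +1 -2.49, -2.37, -1.83 and -2.16. They were -0.15, -1.45, -1.75 and -1.28 at day +15, -1.98, -1.67, -0.67 and -0.90 at day +30, and -2.08, -1.14, -0.76 and -1.74 at day +60. They were -1.37, -0.17, -1.38 and -1.75 at day +120, -1.23, -0.98, -1.25 and -2.50 at day +180, and -3.14, -0.34, -1.81 and -1.90 at day +240. From day +15 to day +120 every animal was above its own value at day -30, and at each of these 4 days the 4 values lay above all 4 of day -30, where 17.8% (day +15), 5.28% (day +30), 16.2% (day +60) and 3.43% (day +120) of all genes did so. IFIT2 rose at day +15 (log2 change 1.40 ± 0.44 SE, 2.63-fold, adjusted p = 0.0281), and its changes of 1.25 at day +30 (adjusted p = 0.0793), 1.12 at day +60 (0.0512) and 1.38 at day +120 (0.0692) did not pass. The call at day +15 was lost without animal 1 (0.92, adjusted p = 0.178), animal 3 (1.55, 0.0947) or animal 4 (1.60, 0.066), with array brightness in the model and by the scanner files' record, and the change was 0.65 at the lowest.

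CXCL10, which draws T cells and natural killer (NK) cells through the receptor CXCR3, had the widest span of day means, 2.94 log2 units. At day -30 it was 0.13, 1.97, 0.84 and 1.95, at day -15 1.49, 1.32, 1.56 and 1.68, and at day +1 0.05, 1.17, 0.82 and 1.18. It was 0.49, 1.78, -0.04 and 0.95 at day +15, -0.66, -0.94, -1.39 and -0.76 at day +30, and -1.01, -1.93, -0.88 and -0.20 at day +60. It was -0.78, -1.30, -0.27 and 1.56 at day +120, -1.99, -1.86, -1.84 and -0.02 at day +180, and -0.22, -0.05, -1.62 and 1.80 at day +240. At days +30, +60 and +180 all 4 values lay below all 4 of day -30, where 9.91%, 20.0% and 10.2% of all genes did so, and at days +120 and +240 animal 4 stood within the range of day -30.

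CXCL10 was lower than at day -30 at day +30 (log2 change -2.16, 4.46-fold, adjusted p = 0.0173), day +60 (-2.23, 4.68-fold, adjusted p = 0.00352) and day +180 (-2.65, 6.28-fold, adjusted p = 0.0013), each with SE 0.54. The call at day +30 was lost without animal 1, 2 or 3, with changes from -2.61 to -1.91 when each animal was left out in turn. That at day +60 was lost without animal 2 and with array brightness in the model. The fall at day +180 passed under all 17 alternative settings, with adjusted p from 0.000108 to 0.0348. Its 3 probes gave changes of -2.65, -2.74 and -2.34 at day +180, each with an adjusted p of 0.00297 or less among all probes. Animal 4 had the highest CXCL10 value at 6 of the 9 days.

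**Figure D2:**
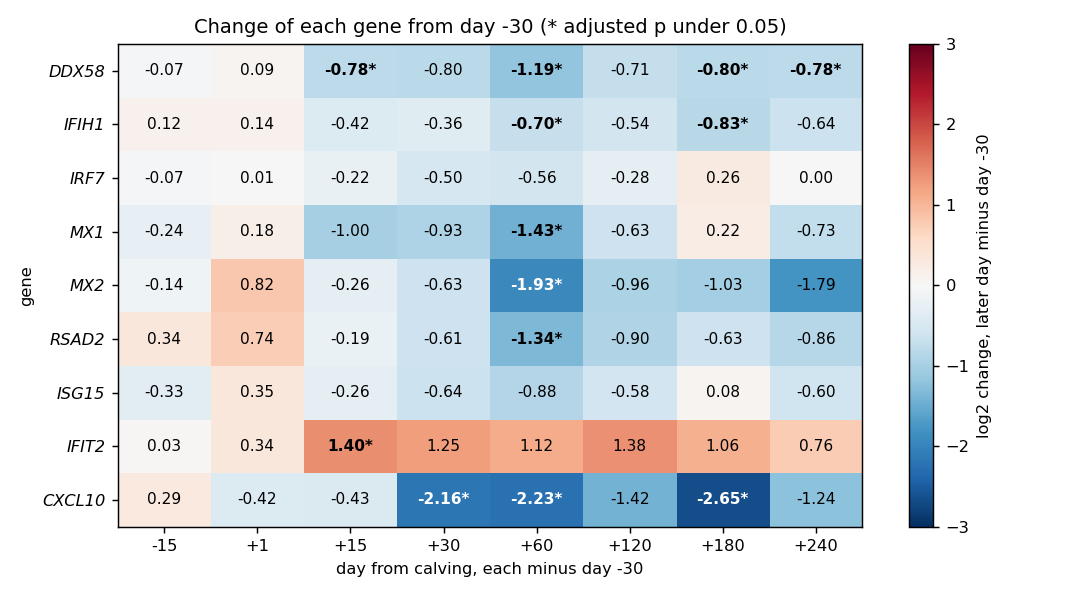
Log2 change of each of the 9 genes (rows) at each later day minus day -30 (columns), with the value in each cell, blue for lower and red for higher. Bold values with an asterisk have an adjusted p under 0.05 over all genes. Day +60 holds 6 such values, all below 0, and IFIT2 is above 0 at every day shown.

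The comparisons with day -30 ask how far the gland had moved from its state before calving, and since all 8 use the same 4 arrays of day -30 they are given side by side. At day -15 and at day +1 none of the 9 genes was called, against 0.00484% and 6.22% of all genes, and none had an unadjusted p under 0.05, with limma or with the ordinary linear model of each gene. At day +15, 2 of the 9 were called, IFIT2 higher and DDX58 lower, against 17.7% of all genes. The median log2 change of the 9 was -0.26 at day +15, and with array brightness in the model it was 0.32, with 0 called. At day +30, CXCL10 alone was lower, against 6.38% of all genes. At day +30, 4.27% of all genes were called lower. With 9 genes, neither count stands clear of its background.

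At day +60 the change reached most of the group: CXCL10, DDX58, IFIH1, MX1, MX2 and RSAD2, 6 of 9, were lower than at day -30, where 29.2% of all genes were called and 16.8% were called lower. The median log2 change of the 9 was -1.19, against -0.12 over all genes. The groups did not overlap for 7 of the 9 on the lower side, ISG15 being the seventh, against 20.0% of all genes, and for IFIT2 on the higher side, against 16.2%. With normexp background correction 7 of the 9 were below 0, MX2 being the second above it, and only CXCL10 was called lower. With quantile normalization 3 of the 9 were called lower and IFIT2 higher, while IFIH1, MX1, MX2 and RSAD2 did not pass. With days taken from the scanner files' record, CXCL10, IFIH1 and RSAD2 were called lower at day +60, and CXCL10, DDX58, IFIH1, MX1 and RSAD2 at day +30.

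Several measurements moved together with the fall at day +60. The 75th percentile of the processed signal was 1278 to 2512 at day +60, against 4854 to 5752 at day -30, and the share of spots well above background was 69.6 to 75.3%, against 84.5 to 89.3%. With array brightness in the model none of the 9 was called at day +60, and 2 had an unadjusted p under 0.05, against 8 without that term. The shares of all genes with that term, and at an unadjusted p, are not given here. These counts therefore stand without a background. The median change was -0.21, and the changes of CXCL10 and DDX58 were -1.48 (adjusted p = 0.121) and -0.85 (0.0664). Without animal 2 the count was 1 (DDX58), and without animal 3 or animal 4 it was 2 (CXCL10 and DDX58). The part of brightness and of the makeup of the tissue in these falls was not tested, and slide and day cannot be told apart.

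After day +60 fewer of the genes differed from day -30. At day +120 none was called, against 3.71% of all genes, although 4 had an unadjusted p under 0.05 (18.9% of all genes) and the smallest adjusted p was 0.0692, and the ordinary linear model also called none. Without the pair of arrays low in milk protein genes, an alternative chosen after seeing the data, CXCL10 and IFIH1 were lower and IFIT2 higher at day +120. At day +180, CXCL10, DDX58 and IFIH1 were lower, 3 of 9, against 17.6% of all genes and 11.0% called lower, and without those 2 arrays the same 3 genes were lower and IFIT2 was higher (log2 change 1.40, adjusted p = 0.0203). Without animal 2, 3 or 4, CXCL10 alone was lower at day +180, and without animal 4, 1 of the 9 was called higher. With array brightness in the model the median change of the 9 at day +180 was 0.22, against -0.63 without that term, CXCL10 alone was lower and MX1 was higher (1.10, adjusted p = 0.0494), while DDX58 (-0.59, 0.112) and IFIH1 (-0.51, 0.125) did not pass. At day +240 DDX58 alone was lower, against 13.8% of all genes and 7.06% called lower. It was not called without the replicate block (0 of 9) or with animal as a fixed effect (likewise 0), and IFIH1 joined it without those 2 arrays.

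Between neighbouring days none of the 9 genes was called in any of the 7 comparisons from day +1 against day -15 to day +240 against day +180, with limma or with the ordinary linear model, where 1.77, 0.32, 0.0145, 0.886, 0.867, 0.354 and 0.77% of all genes were called, in the order of the days. At an unadjusted p under 0.05, 5 of the 9 differed between day +15 and day +1 (20.2% of all genes), 2 between day +180 and day +120 (15.4%), 1 between day +30 and day +15 (7.16%), 1 between day +240 and day +180 (13.5%), and none in the other 3 comparisons. The median log2 change of the 9 was -0.61 at day +15 against day +1 and -0.35 at day +60 against day +30, where all 9 were below 0. It was 0.44 at day +120 against day +60, where all 9 were above 0. With the days put in order of their mean, each gene has 8 steps between neighbours. DDX58, MX1 and IFIT2 had 1 step each that exceeded the larger SD of its 2 days, the widest being 0.65 between days +120 and -15 for DDX58, and the other 6 genes had none.

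Over the 36 arrays, which come from 4 animals and share each array's depth of signal, the genes other than IFIT2 were positively correlated in 28 of 28 pairs, and IFIT2 was negatively correlated with each of the 8 others. As descriptions, Pearson's r was 0.82 for RSAD2 with MX2, 0.80 for MX1 with ISG15, 0.76 for DDX58 with IFIH1 and 0.02 for CXCL10 with IRF7. MX1 and MX2 lie next to each other, with their probes within 49.9 kb on chromosome 1 of UMD 3.1, and their r was 0.74 over the arrays and 0.83 over the deviations from the day means. CXCL10 and IFIH1 had an r of 0.55 over the arrays and 0.13 within days. Within days the sign turned for CXCL10 with IRF7 (-0.20), RSAD2 with IRF7 (-0.05) and DDX58 with IFIT2 (0.09), and for no other pair. The correlation of each gene with the mean of the 9 standardized genes was 0.88 for MX2 and RSAD2, 0.83 for DDX58 and ISG15, 0.81 for MX1, 0.80 for IFIH1, 0.58 for CXCL10, 0.50 for IRF7 and -0.39 for IFIT2.

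The 10 gene symbols with the highest r to that mean, over the 36 arrays, were OAS1Y (0.90), XAF1 (0.87), RTP4 (0.86), LOC100296192, COL4A5, PABPC5 and PARP12 (0.83 each), SLFN11 (0.82), EPSTI1 and TSC22D2 (0.81 each). OAS1Y is an oligoadenylate synthetase, which activates RNA decay in infected cells. OAS1Y, XAF1, RTP4, PARP12 and EPSTI1 are also in the list of other interferon stimulated genes below.

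The other genes of the pathway were taken by list, and each was tested in the same fit. Of 36 measured genes in a list of other interferon stimulated genes, 16 changed with day by the F test, close to the 42.1% of all genes. At day +60, 8 of them were lower than at day -30 (BST2, EPSTI1, IFI27, OAS1Y, PARP12, RTP4, TRIM21 and XAF1) and 5 were higher (HERC6, ISG20, NMI, OAS2 and PLSCR1), with a median log2 change of -0.61. Of all genes, 16.8% were called lower and 12.4% higher at day +60. The exonuclease ISG20 rose by a log2 change of 4.12 ± 0.67 SE at day +15 (adjusted p = 0.000388) and of 4.03 ± 0.67 SE at day +60 (9.97e-05). The scramblase PLSCR1 rose by 1.89 ± 0.27 SE at day +15 (0.000179) and the ligase gene HERC6 by 2.84 ± 0.58 SE at day +60 (0.000805). RTP4 changed by -1.32 ± 0.32 SE at day +60 (0.00365).

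Genes known as targets of interferon gamma, the interferon of T and NK cells, formed another list. Of 13 measured, 10 changed with day by the F test, and 7 were lower at day +60 (CXCL9, GBP4, GBP5, IDO1, PSMB10, PSMB9 and TAP1) with B2M higher, and a median of -0.88, where 16.8% of all genes were called lower. At day +180 the counts were 7 lower, where 11.0% of all genes were, and 0 higher, with a median of -1.0 and the same arrays of day -30. Without the pair of arrays low in milk protein genes the counts at day +180 were also 7 and 0, and IDO1 and TAP1 changed by -3.65 (adjusted p = 0.000516) and -1.20 (0.000495). IDO1, which breaks down tryptophan, averaged -0.76 at day +60 and -1.77 at day +180, against 2.01 at day -30 (log2 changes -2.77 ± 0.66 SE, adjusted p = 0.00296, and -3.78 ± 0.66 SE, adjusted p = 0.00028). The peptide transporter TAP1 changed by -1.01 ± 0.23 SE at day +60 (0.00182) and -1.11 ± 0.23 SE at day +180 (0.00127), and the immunoproteasome subunits PSMB10 and PSMB9 by -1.04 (0.00571) and -0.88 (0.00799) at day +60. With array brightness in the model 2 of the 13 were lower at day +60 and 10 at day +180. The shares of all genes above belong to the model without that term. The share called lower with it is not given here, so these counts stand without a background.

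Of the interferons and their receptors 6 of 11 were measured. IFNG, interferon gamma itself, was not well above background on any of the 4 arrays of day +60, while it was on all 4 of day -30, and was at least 2.68-fold lower (adjusted p = 0.00164). That bound sets the 4 arrays of day -30 against the lowest signal well above background on each array of day +60. The receptor chain IFNGR2 was higher at day +60 (log2 change 1.09 ± 0.30 SE, adjusted p = 0.00772), and IFNAR1, a chain of the type I interferon receptor, was higher at day +30 (1.55 ± 0.44 SE, adjusted p = 0.0302). IL10RB did not pass the F test (adjusted p = 0.135).

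In the JAK-STAT list 5 of 10 genes changed with day by the F test, a share near the 42.1% of all genes. At day +60 the kinase JAK1 was higher (log2 change 1.60 ± 0.38 SE, adjusted p = 0.00284), while IRF9 (-0.68 ± 0.21 SE, 0.0166) and IRF1 (-1.31 ± 0.36 SE, 0.00755) were lower. IRF9 is part of the factor that binds the promoters of interferon stimulated genes. Among 13 sensor adaptors and kinases, 5 changed by the F test, also near that share. MYD88, the adaptor of Toll-like receptors, was higher at day +60 (0.81 ± 0.20 SE, 0.00483), and the double-stranded RNA receptor TLR3 was lower (-1.33 ± 0.46 SE, 0.0303). TMEM173 (STING) changed by -1.23 ± 0.55 SE (0.0901), and the kinase IKBKE was lower at day +15 (-0.97 ± 0.29 SE, 0.0242). Of 8 negative regulators 2 changed by the F test, TRIM38, lower at day +180 (-2.40 ± 0.46 SE, 0.000668, and -2.46 without the pair of arrays low in milk protein genes), and RNF125, a ubiquitin ligase of RIG-I, higher at day +15 (1.78 ± 0.42 SE, 0.00727). USP18, which removes ISG15 from proteins, was lower at day +60 (-1.17 ± 0.37 SE, 0.0205).

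Markers of blood cells and of the secretory tissue moved with day as well. Of 12 measured T and NK cell markers, 4 were lower at day +60 (CD2, CD3D, CD8A and GZMA), where 16.8% of all genes were, and none higher, with a median log2 change of -1.10, and their mean per array was -2.23 to -1.25 at day +60, against -0.94 to -0.46 at day -30. CD2 changed by -1.39 ± 0.39 SE (adjusted p = 0.00956) and CD3D by -1.44 ± 0.43 SE (0.0145), and 11 of the 12 were above background on all 36 arrays, GZMA being above it on no array of day +60. The mean of GZMA at day -30 was -5.63, below the mean of the lowest signals well above background at day +60 (-5.44). The call of GZMA therefore gives no bound on its fall. KLRK1, an NK receptor, was lower at day +180 (-1.85 ± 0.57 SE, 0.0243), and by -2.61 (0.000124) without the pair of arrays low in milk protein genes. With array brightness in the model none of the 12 was called at day +60, and the median change was -0.20. The 6 pan leukocyte markers had a median change of -0.58 at day +60 with none called, and their mean per array was 1.23 to 2.08 at day +60, against 2.20 to 2.30 at day -30.

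Lists of other cell types went both ways. Of 9 neutrophil markers, 4 were higher at day +60, where 12.4% of all genes were, and PGLYRP1 was lower (log2 change -2.69 ± 0.39 SE, adjusted p = 1.69e-05), and their mean per array was -2.13 to -0.48 at day +60, against -3.18 to -2.77 at day -30. S100A8, an antimicrobial calgranulin, was higher by 3.54 ± 1.11 SE (0.0181). Of 10 macrophage markers MARCO alone was higher at day +60 (3.62 ± 0.78 SE, 0.00133), and of 8 B and plasma cell markers BLK alone was lower (-1.44 ± 0.47 SE, 0.0222). The mean of the 6 milk protein genes was 7.64 to 8.42 at day +60, against 3.54 to 5.08 at day -30, and CSN3 (kappa-casein) was higher by 2.93 ± 0.80 SE (0.00785). The part of any of these cell types in the levels of the interferon response genes was not tested.

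**Figure D3:**
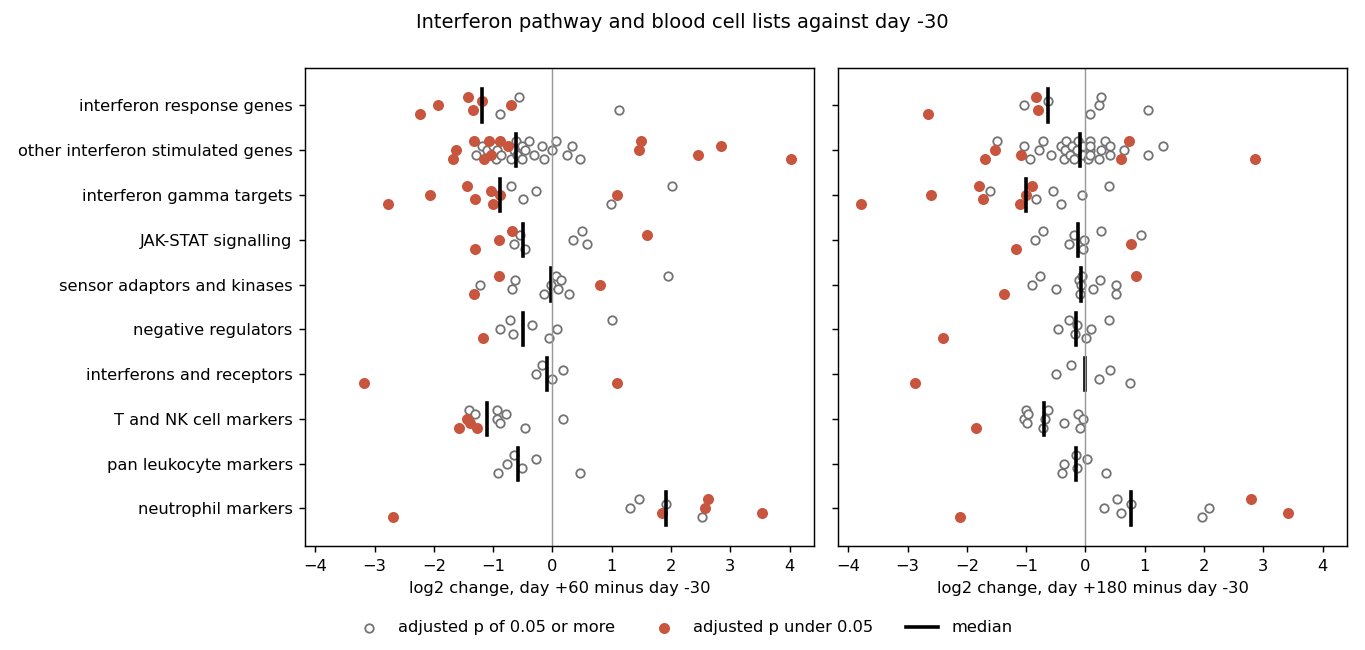
Log2 change at day +60 (left) and day +180 (right) minus day -30 for each gene of 10 lists. Each point is a gene, filled red with an adjusted p under 0.05 and open otherwise, and the black bar is the median of the list. The median of the 9 interferon response genes is -1.19 at day +60 and -0.63 at day +180.

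In 5 further lists no gene was called lower at day +60. There, 2 of 7 endothelial markers (PECAM1 and VWF), 2 of 8 epithelial markers (KRT19 and ELF5), 3 of 7 myoepithelial markers (ACTA2, MYH11 and OXTR) and 1 of 6 adipocyte markers (FABP4) were higher, where 12.4% of all genes were called higher. None of 6 fibroblast markers was called, with a median change of -0.07.

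**Figure D4:**
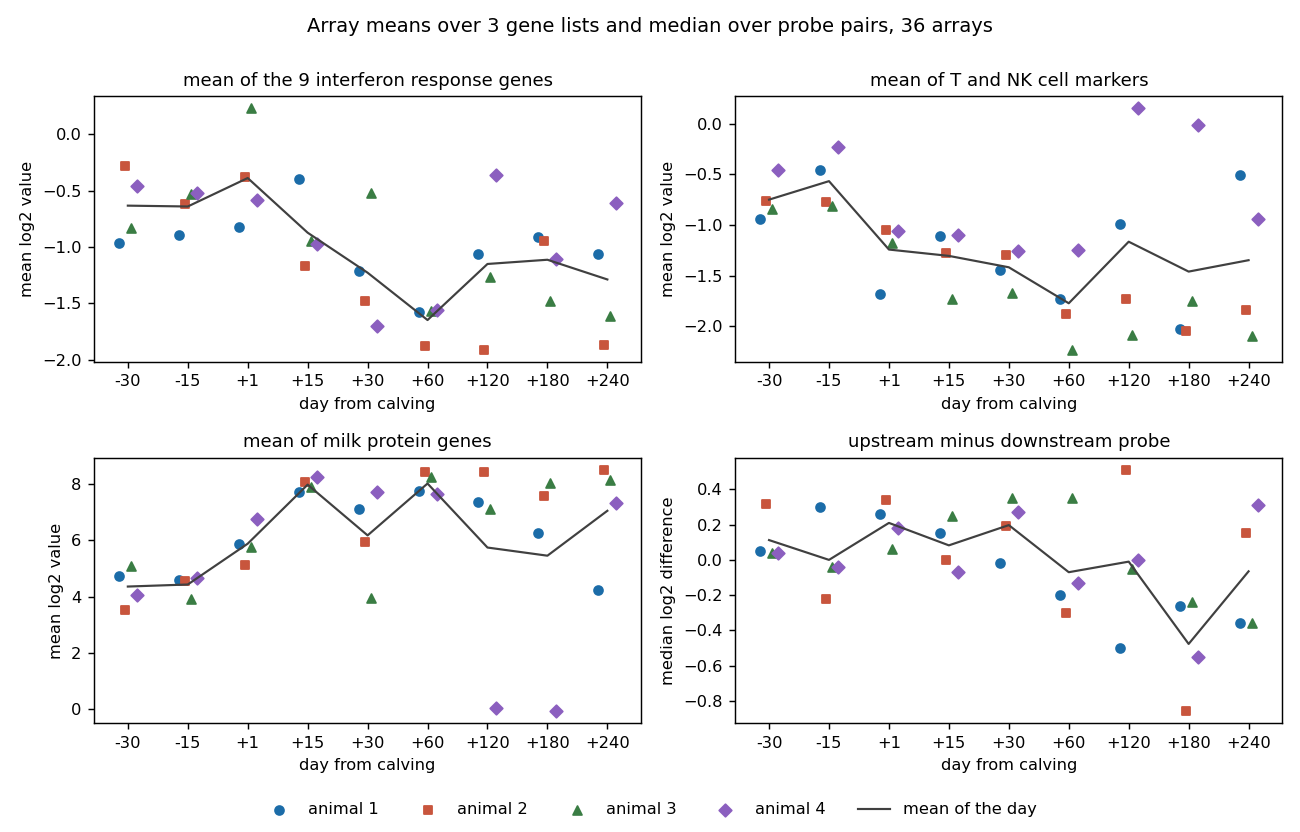
Mean log2 value per array of the 9 interferon response genes (top left), of T and NK cell markers (top right) and of milk protein genes (bottom left), and the median difference between upstream and downstream probes of the same gene (bottom right), by day from calving. Points are the 4 animals and lines join the day means. Animal 4 at days +120 and +180 stands near 0 in milk protein genes and above the other animals in T and NK cell markers.

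The 2 arrays low in milk protein mRNA were also the highest of their days in the T and NK cell markers, with list means of 0.15 and -0.01, against -0.99 or less on the other arrays of those days. CXCL10 was 1.56 and -0.02 on them, the highest value of each of the 2 days. The mean of the 9 interferon response genes was -0.36 at day +120 in animal 4, against -1.91 to -1.06 in the other 3 animals, and -1.11 at day +180, against -1.48 to -0.91. On the array of animal 3 at day +30, with a milk protein mean of 3.94, it was -0.52, against -1.70 to -1.21 in the other 3 animals. For animal 1 at day +240, with 4.23, it was -1.06, against -1.87 to -0.61.

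Changes at day +180 also differed with the place of the probe along its transcript. For 3868 genes with probes at least 1000 bases apart, the median difference between the upstream and the downstream probe, each gene centred on its mean over the arrays, was -0.86 to -0.24 at day +180, against 0.04 to 0.32 at day -30, with the same range over the 3 arrays of day +180 without animal 4, and it was -0.30 to 0.35 at day +60. Among the interferon response genes, the 3 IFIH1 probes gave log2 changes of -2.04 (adjusted p = 0.00944 among all probes), -2.10 (0.000713) and -0.83 (0.0229) at day +180 from upstream to downstream, the last being the probe used. MX1 gave -1.18 (0.149) at its most upstream probe and 0.22 (0.801) at the probe used. RSAD2 gave -1.56 (0.0742) at its probe with transcript start 720 and -0.63 (0.338) at the probe used, with start 2423. On the minus strand of chromosome 11 these probes lie at 90012605-90012649 and 90012711-90012770, which is the opposite order. Which RSAD2 probe is upstream is therefore not settled. Without the pair of arrays low in milk protein genes the IFIH1 probes gave -2.14, -2.24 and -0.66, the same MX1 probes -1.37 and 0.20, and those of RSAD2 -1.78 and -0.85. The first probes given for IFIH1, MX1 and RSAD2 were dim, with means of -4.00, -3.72 and -3.66 over the arrays. They were well above background on 33, 35 and 33 of the 36 arrays. The probes used (-0.87, -0.87 and -1.85) and the middle IFIH1 probe (-1.52) were so on all 36. At day +180, 68.6 to 76.0% of spots were well above background. Differences between probes of a gene were not tested, and neither was the part of this shift, or of probe brightness, in the changes given above.

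**Figure D5:**
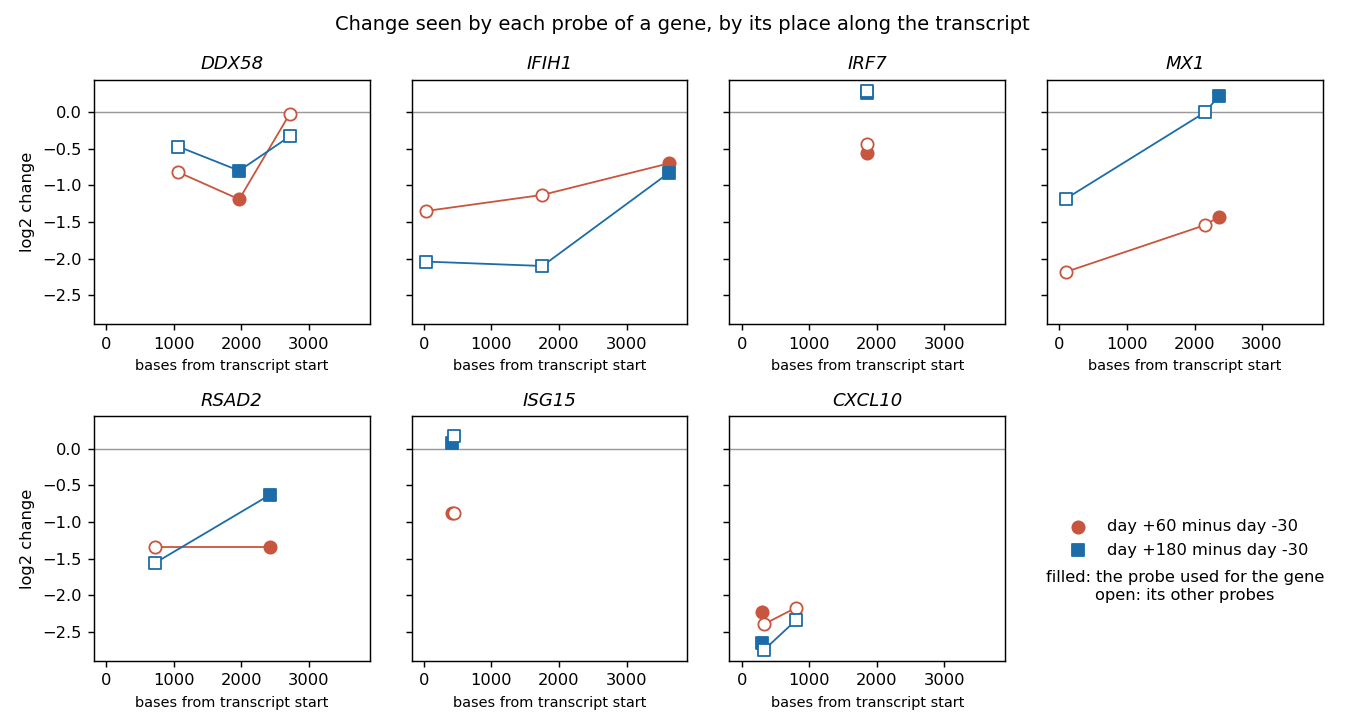
Log2 change of each probe at day +60 (red circles) and day +180 (blue squares) minus day -30, by the place of the probe in bases from the start of its transcript, for the 7 genes with several probes. Filled symbols are the probes used for the gene. Upstream probes of IFIH1 and MX1 are lower than the downstream ones at day +180, and the 3 CXCL10 probes lie between -2.74 and -2.34 there. The RSAD2 probes have opposite orders by transcript start and by place on the genome.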

How the data were processed

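RNA of 36 biopsies was measured on Agilent cattle arrays. Feature Extraction 10.7.3.1 read the scans for the authors, per the file headers, with 1 file per array with signals in intensity units and other quality marks (0 or 1 per spot). The deposited table of normalized log2 values was made with GeneSpring 12, per the labels. The comparison of its columns with the scanner files found each equal to the log2 processed signal of 1 file less its 75th percentile, its medians running from -1.70 to -1.34. Control and outlier spots (10 to 151 an array) were left out of the scanner values, and 0 spots were saturated.

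One probe, that with the highest mean, stood for each of 14196 symbols, and 6447 unnamed probes stood alone. Symbols are those of the array design, and 8 of the 9 names (DDX58 being the exception) and 11574 of the 14196 are in the yak gene table of RefSeq (Bosgru_T2T1.0). Days and animals came from the sample titles of the table's columns. R 4.3.3 with limma 3.58.1, statmod 1.5.0 and data.table in version 1.17.8 fitted day with animal as a random block (consensus correlation 0.0534). The sample names number the animals, so the numbers pair the samples. Deviations of the same animal correlated by 0.155 on average and those of other animals by -0.0519. Each animal held the same position on every slide, so animal and position cannot be told apart in these values. Tests are two-sided, with Benjamini-Hochberg adjustment over all genes inside each of the 15 comparisons. No filter on low values was applied, and 8 of the 9 genes were well above background on all arrays and MX2 on 32.

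The members, the lists and the tests were chosen with earlier results of these data known. All 9 members are named. Up to 4 genes of each list with the smallest F test p are named with values, and other list genes called at day +15, +60 or +180 were chosen after their values were seen. One gene of the lists is counted but not reported here by name. Sequences were checked by script against the scanner files. The model fits were tested on simulated data, and Python 3.11.15 (numpy 2.4.6, pandas 2.3.3, matplotlib 3.10.9) made tables and figures. The number of arrays limits the precision. In the record used, every slide holds each of the 4 animals once, always at the same position.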

Additional observations from a re-analysis of the deposited data

Results flagged for a closer look

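Of the 81 groups of 4 arrays (9 genes at 9 days), 5 had an animal whose gap to the nearest other value passed Dixon's critical value for 4 samples, and chance alone would give about 1 group in 20. CXCL10 at day +180 was -0.02 in animal 4, against -1.99 to -1.84 in the other animals, on an array that was also low in milk protein genes. DDX58 at day -30 was -0.75 in animal 2, against -1.73 to -1.58, and IFIH1 at day -15 was -0.70 in animal 1, against -0.32 to -0.25. ISG15 at day +1 was 2.30 in animal 3, against 0.68 to 0.95. IRF7 at day +60 was 1.76 in animal 1, against 1.05 to 1.09.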

How the results depend on the processing

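Of 9 members, the F test called 6, but 2 with normexp and 2 with brightness as a covariate, and 1 to 6 when each animal was left out in turn. Over all genes it called 8701, 4683 with normexp, 4471 by the scanner files' record and 2188 to 6477 without 1 animal.

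Against day -30, the count at day +15 was 2, and 1 with normexp, 1 with the mean of all probes, 0 with brightness as a covariate, 0 by the scanner files' record and 0 to 1 without 1 animal. At day +30 it was 1, and 3 with quantile normalization, 5 by the scanner files' record, 2 with other days left out of the fit and 0 to 1 without 1 animal. At day +60 it was 6, and 2 with normexp, 0 with brightness as a covariate, 3 by the scanner files' record and 1 to 5 without 1 animal. With quantile normalization the count there held 3 lower and 1 higher, and not IFIH1, MX1, MX2 or RSAD2. At day +120 it was 0, and 1 with scanner values of all probes, 1 with quantile normalization, 1 by the scanner files' record, 3 without the pair of arrays low in milk protein genes (chosen after seeing the data) and 0 to 1 without 1 animal. At day +180 it was 3, and 1 with normexp, 1 with other days left out and 1 to 2 without 1 animal. At day +240 it was 1, and 2 without that pair of arrays, 0 to 2 without 1 animal, and 0 with normexp, quantile normalization, no replicate block, animal as a fixed block, the ordinary linear model, brightness as a covariate, the scanner files' record and other days left out. Between neighbouring days, leaving out the other days gave 2 at day +15 against day +1, and the scanner files' record called 1 at day +240 against day +180. Day +60 was lowest for 6 members, for 3 with normexp, for 1 by the scanner files' record and for 3 to 6 without 1 animal. The cause of these shifts was not tested.

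Among called changes, the sign turned for MX2 at day +60, 0.06 with normexp and 0.01 with brightness as a covariate, and for DDX58 at day +240, 0.01 by the scanner files' record. Over the 54 values of the 9 members at 6 days from day +15 on, called or not, brightness as a covariate turned 13 signs (6 of them at day +15, and MX2 at days +15, +30, +60, +120 and +180), the scanner files' record 10, normexp 2, quantile normalization 2, the mean of all probes 1, and leaving out 1 animal 0 to 5. The replicate block, fixed or left out, changed no other count of members by over 1.5 times. The gene counts ran from 1741 to 8305 at day +60 (6032), 1319 to 5809 at day +180 (3623), 241 to 5311 at day +15 (3644), 0 to 4437 at day +240 (2842), 112 to 3997 at day +30 (1317), 152 to 3657 at day +1 (1285), 37 to 2707 at day +120 (766) and 0 to 8 at day -15 (1). Slide as a random block was not run, since each slide holds 1 day. Depth limits MX2 most, with 32 of 36 arrays well above background.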
